A study of Mus musculus with 4 samples.

Results

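The Slc17a1 to Slc17a4 cluster is a row of 4 solute carrier genes, Slc17a2, Slc17a3, Slc17a1 and Slc17a4 in their order along mouse chromosome 13. The genes were chosen by name and position. Their region is one that the study shows as an example of differing expression and structure, so the differences below were known when the genes were picked and are a description. They are 4 of the 21755 protein-coding genes of chromosomes 1 to 19 and X in the GENCODE M21 annotation. They were placed in the topologically associating domains (TADs) of 2 lists, one from 2D- and one from 3D-cultured AML12 cells. AML12 is an immortalized hepatocyte line derived from mouse liver. The 2D-cultured cells grew on dishes and the 3D-cultured cells were embedded in Matrigel, a gel of extracellular matrix. All cells of both cultures had received 1 mM hydroxyurea, an inhibitor of DNA replication, to hold them at the G1/S boundary, which lasted 24 h in the 2D cultures and 36 h in the 3D cultures. Culture and length of drug exposure therefore cannot be told apart, and a single cell line was used. In situ Hi-C, which records pairs of genomic positions that lie close together in the nucleus, was done on 2 biological replicates of each culture, 4 samples in all. The authors combined the replicates of a culture before they called TADs on contact maps of 40 kb bins, so each culture gave a single list of intervals with no replicate error, and no test between the cultures could be made. A difference of 1 bin, 40 kb, is the smallest that the lists can show. The entries carry no score or read count, so how many reads support a TAD is unknown. They carry no expression either, so the hepatocyte label could not be checked against marker genes, and whether the cluster was transcribed in these cells is not known from them. Both lists fitted the chromosome lengths of GRCm38 (mm10), the build used throughout.

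The SLC17 family carries anions across membranes. Its first described members were named type I sodium-phosphate cotransporters, and the products of this cluster are now known mainly for moving urate and other organic anions in kidney, liver and intestine. A TAD is a stretch of chromosome whose positions contact each other more than they contact the stretches on either side. Promoters and regulatory elements that lie in the same TAD meet more often than those on opposite sides of a border, so the TAD sets out the neighbours with which a gene most often shares contacts.

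The 4 genes lay within 108 kb on chr13:23806993-23915009, with no other protein-coding start among them. Slc17a2 (ENSMUSG00000036110.14, NPT3) came first, at chr13:23806993-23825180 on the + strand, with a length of 18.2 kb. Slc17a3 (ENSMUSG00000036083.15, NPT4), a voltage-driven exporter of organic anions and urate, followed at chr13:23839434-23860716 on the + strand and measured 21.3 kb. Slc17a1 (ENSMUSG00000021335.13, NPT1), a urate and anion transporter of the kidney tubule and liver, lay at chr13:23867750-23895730 on the + strand and was the longest, at 28.0 kb. Slc17a4 (ENSMUSG00000021336.17), an organic anion transporter of the intestine and liver, lay at chr13:23895890-23915009 on the - strand and measured 19.1 kb. The first 3 genes thus pointed the same way, and Slc17a4 faced them. Bodies were separated by 14.3 kb between Slc17a2 and Slc17a3, by 7.03 kb between Slc17a3 and Slc17a1, and by only 159 bases between the ends of Slc17a1 and Slc17a4, which met tail to tail. From one start to the next the distances were 32.4, 28.3 and 47.3 kb, close to the width of 1 bin. No TAD in either list was shorter than 120 kb, so none could lie wholly inside the row, although a border could have crossed it.

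The coding sequences of the members were read from the genome by the annotated exons of 1 transcript each. They held 478 codons before the stop in Slc17a2, 498 in Slc17a3, 465 in Slc17a1 and 492 in Slc17a4, over 12 to 13 exons. Aligned pairwise, they matched at 68.6% to 71.7% of the aligned bases. The lowest identity was between the neighbours Slc17a2 and Slc17a3, and the highest was between Slc17a2 and Slc17a4, the outermost genes of the row. The neighbours Slc17a1 and Slc17a4 matched at 70.1% and the neighbours Slc17a3 and Slc17a1 at 70.9%, so the genes that lay side by side were not the most alike.

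RefSeq (GRCm38.p6) gave start sites for 3 of the 4 members, and the 250 bases before each start are described here because the genes share a TAD and so a set of possible regulatory contacts. Slc17a1 had a pair of starts, which makes 4 promoters. These promoters were searched on both strands for GTTAAT, which is part of the binding site of the liver and kidney factor HNF1, for CAAAGTCCA, a site of the liver factor HNF4, and for the TATA box, TATAAA. None of the 4 held any of these letters, which occurred in 7.1%, 0.475% and 13.6% of all 32851 promoters. Each promoter sequence was searched in full, including any bases past the start, so the shares are not limited to the 250 bases described. A longer HNF1-like run, GTTAAANAT, was searched only after the promoters had been seen. It occurred in 0.892% of all promoters and in 2 of the 4, and did not overlap the motifs above. It stood on the + strand in both, 83 bases before the Slc17a2 start and 61 bases before the second Slc17a1 start. Because the letters were picked from these sequences, the match is a description and not evidence of binding. In the sequences below, 5′ to 3′ on the + strand, capitals mark that run. The promoter of Slc17a2 (chr13:23806743-23806992) had a GC content of 47.2% and 6 CpG dinucleotides, and the second promoter of Slc17a1 (chr13:23870023-23870272) had 46.8% and none. The promoter of Slc17a3 (chr13:23839184-23839433), shown as the one of the neighbours without the run, had 32.8% GC and 2 CpG.
Slc17a2: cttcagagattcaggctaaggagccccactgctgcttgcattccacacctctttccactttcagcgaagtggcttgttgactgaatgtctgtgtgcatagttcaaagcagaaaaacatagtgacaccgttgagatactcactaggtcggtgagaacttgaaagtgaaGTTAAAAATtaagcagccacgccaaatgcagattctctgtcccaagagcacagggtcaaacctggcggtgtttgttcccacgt
Slc17a1, second start: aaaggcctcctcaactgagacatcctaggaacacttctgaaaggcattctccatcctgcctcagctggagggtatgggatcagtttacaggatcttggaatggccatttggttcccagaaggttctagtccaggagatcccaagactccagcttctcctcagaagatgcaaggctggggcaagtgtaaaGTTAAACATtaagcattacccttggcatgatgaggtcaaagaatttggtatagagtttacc
Slc17a3: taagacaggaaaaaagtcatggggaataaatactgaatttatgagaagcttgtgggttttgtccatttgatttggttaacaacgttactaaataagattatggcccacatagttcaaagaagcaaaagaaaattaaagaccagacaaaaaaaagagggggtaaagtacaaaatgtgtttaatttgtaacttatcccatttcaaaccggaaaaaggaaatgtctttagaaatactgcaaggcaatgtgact
The first Slc17a1 promoter (chr13:23868768-23869017) also lacked the run and held 3 CpG.

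All 4 genes lay in the same TAD in both cultures. In 2D it was chr13:23760001-24000000, 240 kb or 6 bins, and in 3D it was chr13:23760001-24320000, 560 kb or 14 bins. The left end was identical in the lists, and the right end lay 320 kb farther out in 3D. All 6 pairs of members therefore shared a TAD in 2D, and all 6 did in 3D. The 18 annotated transcripts of the members, 4 or 5 per gene, all began in the same TAD as their gene. Having a start in a TAD was common, at 76.7% of all protein-coding genes in 2D and 83.5% in 3D. The 3 pairs of neighbouring members also shared a TAD in both lists, as did 59.4% of all neighbouring pairs with starts up to 200 kb apart in 2D and 67.0% in 3D. Because the members lie within 108 kb, these 4 genes amount to 1 TAD in each list, and their counts are not 4 separate observations.

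**Figure D1:**
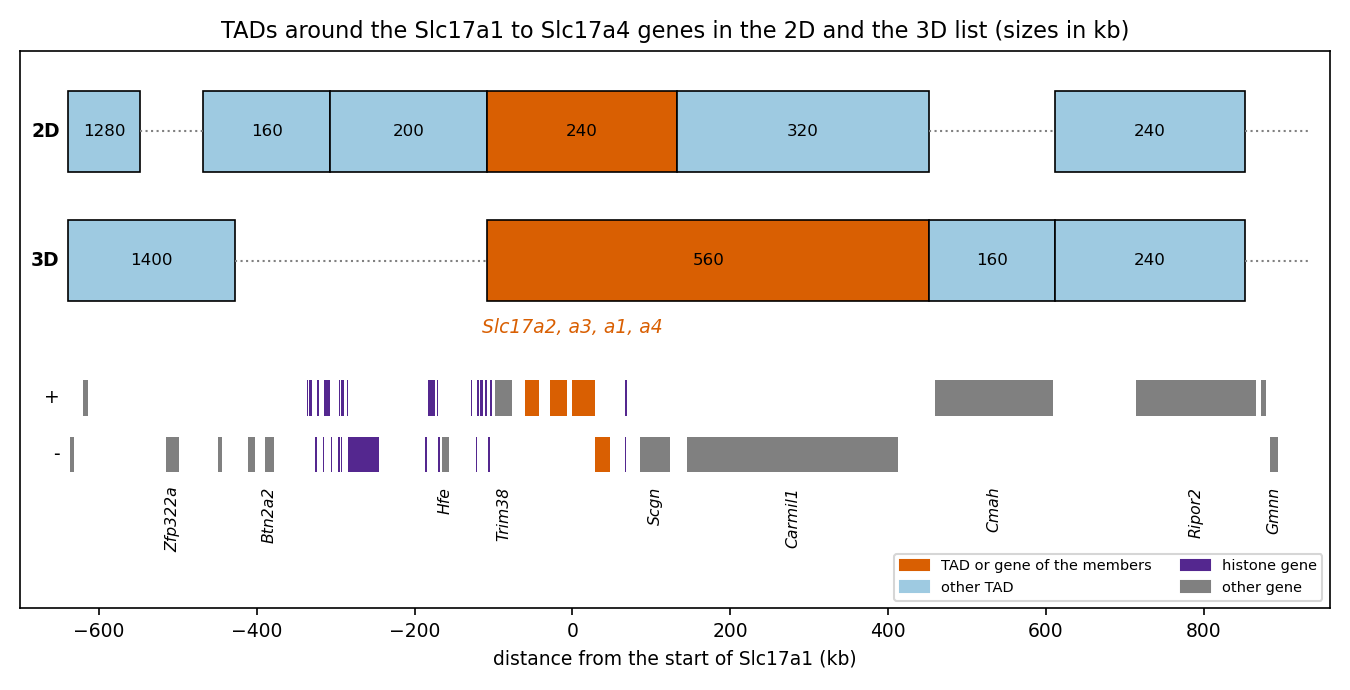
TADs of the 2D and the 3D list (boxes, with their sizes in kb) and protein-coding genes on each strand, by distance in kb from the start of Slc17a1. The dotted lines are stretches in no TAD, and the leftmost TADs run past the edge of the plot. The box that holds the 4 members measures 240 kb in 2D and 560 kb in 3D, where it takes in the 320 kb TAD of Carmil1.

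The difference between the cultures lay at the right end of the TAD. In 3D it was made up exactly of the members' 2D TAD and the one to its right, chr13:24000001-24320000. The 2D border between these, at position 24000000, had no counterpart, and the nearest border of the 3D list lay 240 kb away. Of the 6056 borders of the 2D list, 222 (3.67%) lay as far or farther from a border of the 3D list. The absent border fell between genes, 8.79 kb beyond the start of Scgn and 12.3 kb before the 3′ end of Carmil1. It lay 281 kb from the start of Carmil1.

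The 2D TAD of a gene was called retained when a 3D TAD had both ends within 40 kb of its ends. That held for 0 of the 4 members and for 70.2% of the 15824 protein-coding genes that lay in a TAD in both lists. A 3D TAD was called joined when its ends lay within 40 kb of the outer ends of at least 2 consecutive 2D TADs. All 4 members lay in such a TAD, against 8.11% of those genes, and against 4.98% when the outer ends had to be identical, as they were here. Among the 4355 TADs of the 3D list, 189 were joined and 118 had identical outer ends. Of the 118, 101 had 2 parts and 92 had 2 parts that abutted, as the members' TAD did. On chromosome 13 there were 11 joined TADs, 10 of them with identical ends. The median joined TAD with identical ends measured 600.0 kb and held 5 protein-coding starts. The members' TAD measured 560 kb, which 63 of the 118 equalled or exceeded, and held 12 starts, a number that 18 of the 118 reached. The joining that took in the Slc17 genes was thus 1 of many in the list, of ordinary size and with many genes.

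The left border of the TAD lay equally far from each member in both lists, and the right border lay farther away in 3D. The positions of the genes are fixed, so only the TAD ends differ. Slc17a2 began 47.0 kb from the left border in both lists, and the right border lay 193 kb away in 2D and 513 kb away in 3D. For Slc17a3 the left border lay at 79.4 kb and the right one at 161 kb in 2D and 481 kb in 3D. For Slc17a1 these distances were 108 kb, 132 kb and 452 kb. These 3 genes were nearest to the left border in both lists, so the distance to the nearest border was the same in 2D and 3D. Slc17a4 began 155 kb from the left border, and its nearest border in 2D was the right one, at 85.0 kb. Without that border its nearest border in 3D was the left one, at 155 kb. Over all protein-coding genes the median distance to the nearest border was 53.6 kb in 2D (quartiles 22.5 and 132 kb) and 58.3 kb in 3D (23.8 and 141 kb). Of all genes, 64.6% lay nearer to a border than Slc17a4 in 2D and 76.8% in 3D. For Slc17a2 the shares were 45.6% and 43.1%. All 4 distances thus lay between the quartiles in 2D, and only Slc17a4 lay beyond the upper quartile in 3D.

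**Figure D2:**
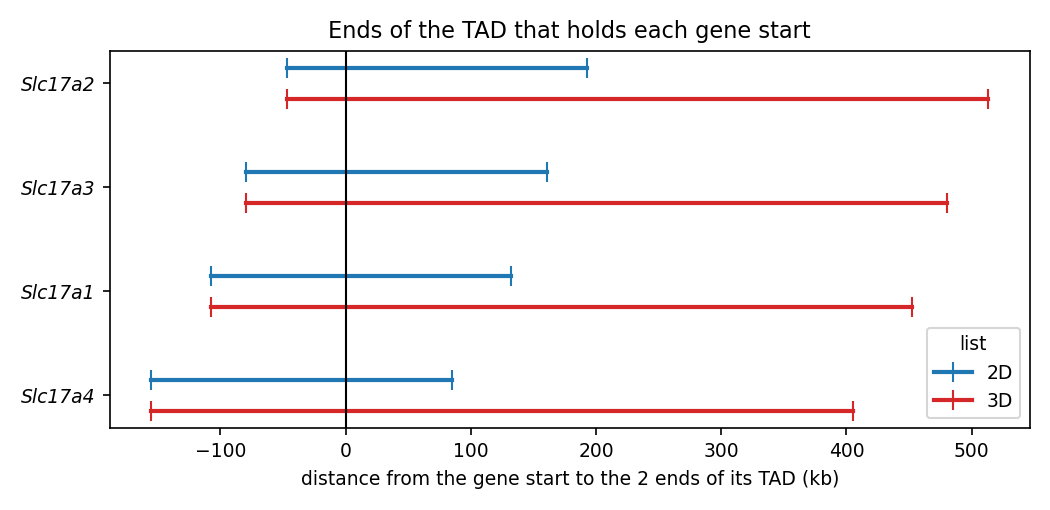
Distance in kb from the start of each member (vertical line at 0) to the left and right ends of its TAD, in the 2D list (blue) and the 3D list (red). The left ends coincide, from 47.0 kb away for Slc17a2 to 155 kb for Slc17a4, and each right end lies 320 kb farther away in 3D.

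In 2D the TAD held 11 protein-coding starts, the 4 members and 7 others. To the left of the members lay 3 histone genes of the large cluster on this chromosome, Hist1h4a, Hist1h3a and the linker histone gene Hist1h1a, and after them Trim38, which encodes a ubiquitin ligase of the innate immune response. To the right lay Hist1h2ba and Hist1h2aa, which encode histone variants known from testis, and Scgn, which encodes secretagogin, a calcium-binding protein of neuroendocrine cells. The TAD in 3D held these same 11 starts and that of Carmil1, which encodes a regulator of actin capping protein, and so 8 genes other than the members. Carmil1 was the gene that joined the cluster. Its body of 268 kb at chr13:24012344-24280795 filled most of the 320 kb TAD that it had to itself in 2D, with 0 other starts, and it shared its TAD with 11 others in 3D. Each member had 10 other starts in its TAD in 2D and 11 in 3D. The number of other starts was higher in 3D for 25.5% of the 15824 genes and lower for 14.4%, and it was higher for all 4 members, whose count is fixed by 1 TAD. With all gene types counted, the TAD held 15 starts in 2D and 19 in 3D.

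The cluster lay in a gene-rich TAD in both lists. In 2D the TAD had the median size of its list, 240 kb, with 48.0% of the 4467 TADs smaller and 43.6% larger. It held 11 starts where the median TAD held 3, and 211 TADs (4.72%) held as many. Per length it had 45.8 starts per Mb, a density reached by 4.41% of the TADs. In 3D the TAD was larger than 75.8% of the 4355 TADs, whose median was 280 kb. Its 12 starts were reached by 229 TADs (5.26%), and its density was 21.4 starts per Mb, which 21.4% of the TADs reached. The added 320 kb brought 1 start. Counted by gene, company of this number was less rare, since 25.6% of the genes in a 2D TAD had 10 or more other starts beside them and 26.2% of those in a 3D TAD had 11 or more.

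**Figure D3:**
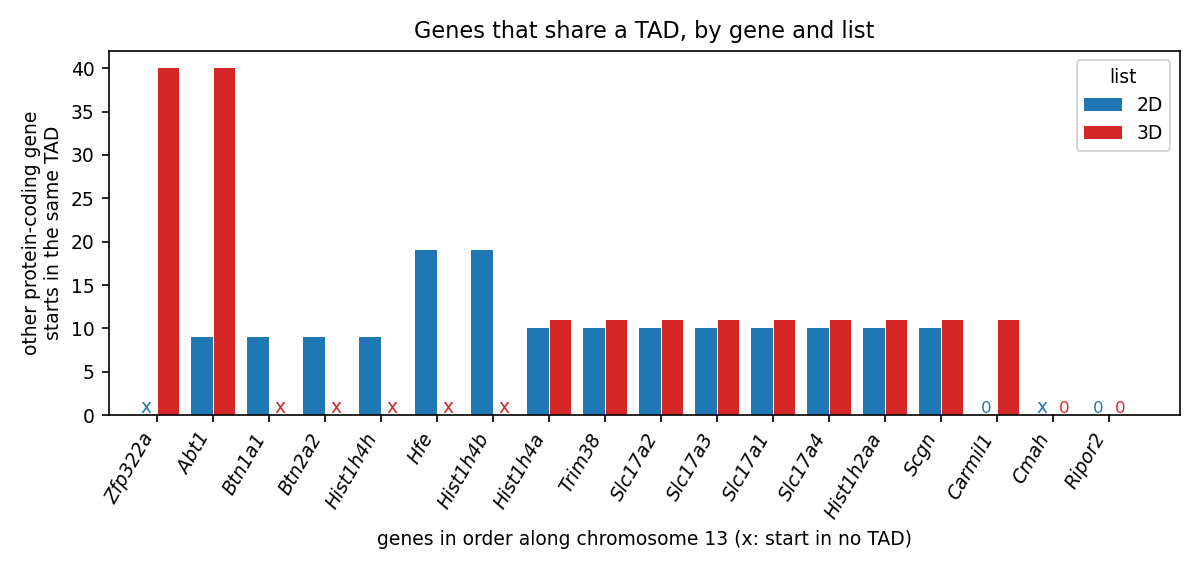
Number of other protein-coding starts in the TAD of each named gene around the cluster, in order along chromosome 13, in the 2D list (blue) and the 3D list (red), with an x where the start lay in no TAD. The 4 members go from 10 to 11, and Carmil1 goes from 0 to 11.

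The border on the left of the members divided the histone genes in both lists. It lay at 23760000, between the starts of Hist1h4b at 23757013 and Hist1h4a at 23761230. The window of 22800 to 24800 kb held 31 histone starts, of which 5 shared the TAD of the members in both lists. The other 26 lay to the left of the border. In 2D they filled a pair of TADs that adjoined each other. The nearer one, chr13:23560001-23760000, measured 200 kb and held 19 histone starts and Hfe, which encodes a regulator of iron uptake that acts in hepatocytes. The farther one, chr13:23400001-23560000, measured 160 kb and held 7 histone starts with Abt1, Btn1a1 and Btn2a2. In 3D these 26 histone starts lay in a stretch of 320 kb that no TAD covered, chr13:23440001-23760000, with 29 protein-coding starts in all. All 31 histone starts were thus in a TAD in 2D and 5 were in 3D, those beside the Slc17 genes. Of all protein-coding genes, 76.7% had their start in a TAD in 2D and 83.5% in 3D. The 26 histone starts share a single stretch, so their count is not 26 separate observations. Hfe and both butyrophilin genes were in no TAD in 3D, and Abt1 was in the TAD of 1400 kb to the left.

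On the right of the cluster the border at 24320000 was found in both lists, between Carmil1 and Cmah, which encodes an enzyme that modifies sialic acid. The start of Cmah lay in no TAD in 2D and in a TAD of its own of 160 kb in 3D. The next TAD, chr13:24480001-24720000 with the start of Ripor2, was identical in the lists. Over the whole window, 6 of the 9 borders of the 2D list were shared within 40 kb, 5 of them at the same position, and the 3 that were not were at 23320000, 23560000 and 24000000. All 6 borders of the 3D list in the window were shared. Among the 3, the border at 24000000 had the largest distance to the other list, 240 kb against 120 kb for the others. Over the genome, 1077 of the 5937 borders of the 2D list between bins without unknown bases had no 3D border within 40 kb.

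The DNA of the joined stretches, and of the stretch without a 3D TAD, had mean values within the central 90% of single bins of the genome. Means of several bins vary less than single bins, so that range is a wide one for them. Repeats and sites of MboI, the restriction enzyme of the Hi-C libraries, were counted per bin because they bear on how well a bin can be mapped and cut. The 6 bins of the members' 2D TAD held 76 to 99 MboI sites with a mean of 85.83, and the 8 bins of the TAD beside it held 81 to 121 with a mean of 97.38. The 8 bins of the stretch without a 3D TAD held 89 to 105 with a mean of 96.75. Over 63726 bins of the genome the mean was 100.3, the median was 99, and the central 90% ran from 78 to 128. One bin of the members' 2D TAD, with 76 sites, fell below that range, and all 6 lay at or below the median. The TAD beside it had bins on both sides of the median. Mean repeat content was 23.6% in the members' 2D TAD, 25.2% in the TAD beside it and 27.7% in the stretch without a 3D TAD, against 34.3% over the genome. Mean GC content was 42.3%, 44.2% and 42.1% in these stretches and 41.8% over the genome. The part of these properties in the TAD calls was not tested.

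**Figure D4:**
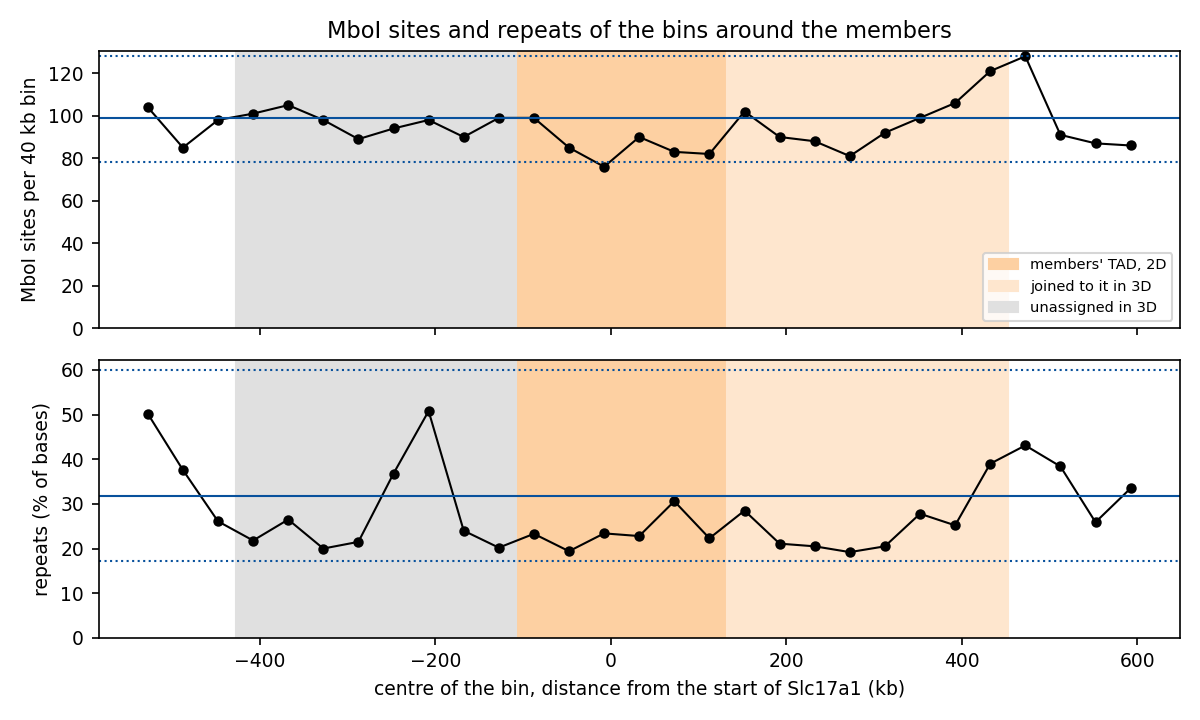
MboI sites per 40 kb bin (top) and percent of bases in repeats (bottom) for the bins around the cluster, by distance in kb from the start of Slc17a1, with the genome median (solid line) and the 5th and 95th percentiles (dotted lines). The 6 bins of the members' 2D TAD hold 76 to 99 MboI sites.

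The bins on either side of the 3 borders of these TADs were searched on both strands for AGGGGGCGC, the core of the motif of CTCF, a protein found at many TAD borders. This run was present in 7.2% of all bins, in 13.4% of all positions between 2 bins when both bins are searched, in 23.7% of 5937 borders of the 2D list and in 23.9% of 5451 of the 3D list. Only borders between bins without unknown bases were counted, which leaves out some of the 6056 borders of the 2D list. At 2D borders with no 3D border within 40 kb the share was 19.7%. The border at 23760000, kept in both lists, had 1 match, at chr13:23738882-23738890 on the - strand, inside the histone gene Hist1h1c and 21.1 kb to the left of the border. It is shown with 10 bases on either side, 5′ to 3′ on the - strand, with the match in capitals.
CTCF core near 23760000: ccttctccgcAGGGGGCGCggcagcgggg
The borders at 24000000 and 24320000 had 0 matches, and the former was absent and the latter present in 3D. These letters are a part of a longer and variable motif, so their absence from a bin says nothing about the protein.

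The other 5 Slc17 genes are scattered over the genome. Of these, Slc17a5, which encodes the lysosomal sialic acid exporter sialin, and Slc17a7, which encodes the vesicular glutamate transporter VGLUT1, were in no TAD in either list. The TAD of Slc17a6 (VGLUT2), chr7:51600001-52000000, was identical in both. That of Slc17a8 (VGLUT3) went from 320 to 360 kb with 3 and 5 other starts, and that of Slc17a9, the vesicular nucleotide transporter, from 200 to 160 kb with 6 and 3. All 3 had a counterpart within 40 kb and 0 lay in a joined TAD, against 70.2% and 8.11% of the genes with a TAD in both lists, so neither count stands apart from the background.

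Of the 13 other genes of phosphate and urate transport, 12 were in a TAD in both lists, as were 15824 of all 21755 genes. None of the 12 lay in a joined TAD, against the 8.11% given above, so a count of 0 is near the background. Counterparts within 40 kb were found for 7 of the 12, among them 5 with identical TADs, against 70.2% and 48.3% of the 15824 genes, so with 12 genes neither count stands apart from the background. These 5 were the phosphate importers Slc20a2 and Slc34a1, the phosphate exporter Xpr1, and the renal organic anion transporters Slc22a6 and Slc22a8. Slc22a6 and Slc22a8 lay in the same TAD in both lists, so their counts are not separate observations. Other starts in the TAD were higher in number in 3D for 3 of the 12, lower for 3 and equal for 6, where 25.5% of the 15824 genes were higher and 14.4% lower. These counts too are near the background, and the genes that follow are given as values only. Slc22a12, which encodes the urate reabsorber URAT1, had 0 other starts in a TAD of 240 kb in 2D and 4 in a TAD of 320 kb in 3D. Slc34a2, a phosphate importer of lung and intestine, went from 0 to 2 as its TAD went from 320 to 480 kb. Pdzk1, a scaffold that binds several of these transporters, went from 3 to 5. In the other direction, Abcg2, a urate exporter, had 34 other starts in a TAD of 1680 kb in 2D and 0 in a TAD of 240 kb in 3D. Slc34a3 went from 27 to 10 and Slc20a1 from 2 to 1. Slc2a9, the urate transporter GLUT9, was in no TAD in 2D and in one of 320 kb in 3D.

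Runs of at least 3 solute carrier genes of 1 family with starts up to 200 kb apart numbered 6 in the genome, and the Slc17 row was 1 of the 2 with 4 or more genes. A single TAD held the whole run in 2 cases in 2D and in 3 cases in 3D, and the Slc17 row was among them in both lists. Placed by whole gene bodies, the number was 2 in both lists, so the difference rests on placing genes by their starts. The longest run, Slc22a19 to Slc22a6 on chromosome 19 with 8 genes, was divided between TADs of 960 and 160 kb, which held 6 and 2 of the genes in both lists. The run Slc22a5, Slc22a21 and Slc22a4 on chromosome 11, carnitine and organic cation transporters, had 2 of its 3 starts in a TAD of 400 kb in 2D and all 3 in a TAD of 560 kb in 3D. Like the Slc17 row, this run lay in a TAD of 560 kb in 3D, but the Slc17 row had been whole in 2D as well.

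**Figure D5:**
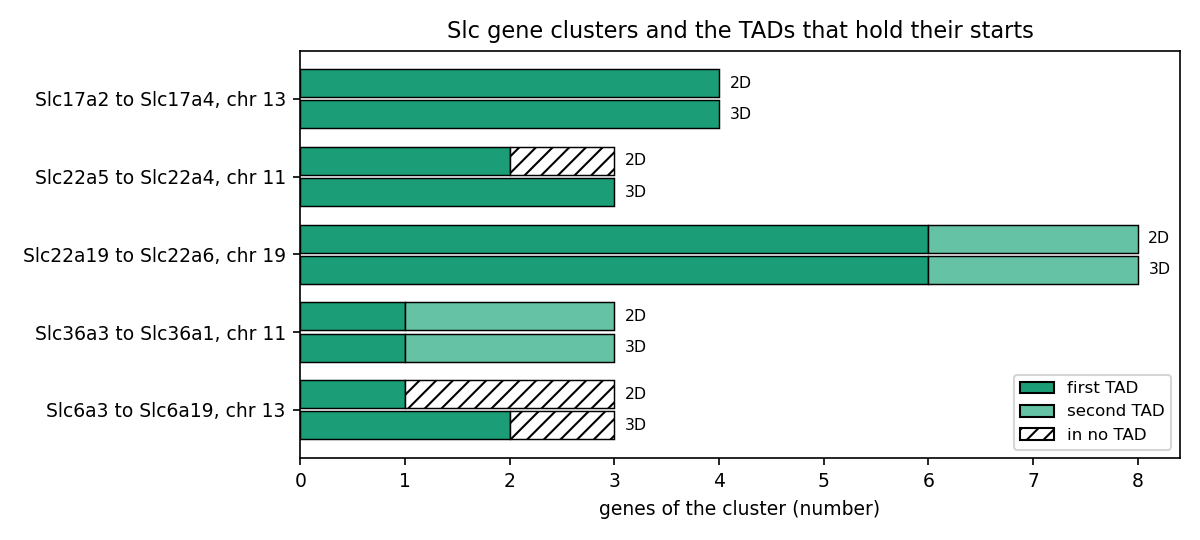
Number of genes of each Slc run shown whose starts lie in a first TAD, in a second TAD or in no TAD (hatched), in the 2D and the 3D list. The 4 Slc17 genes fill 1 TAD in both lists, and the 8 genes of the Slc22a19 to Slc22a6 run divide 6 to 2 in both.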

How the data were processed

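In situ Hi-C was done with MboI on AML12 cells, 2 replicates per culture. Groups came from the culture named in the labels. The deposited files hold values of other units, the start and end of each TAD in bases of mm10, with 1 list for 2D and 1 for 3D. The authors mapped reads with Bowtie 2 (version 2.2.9, also named in their processing notes), filtered the pairs, pooled the replicates, balanced the 40 kb maps with ICE, equalized the depth of each chromosome between cultures and ran Armatus with gamma set to 0.8. Equalizing leaves unequal sequencing less weight in the TAD sizes, and pooling leaves no replicate error. The contact maps, compartments and RNA-seq data were not analysed here, and 1 of the Slc runs is counted but not reported here by name. Columns assigned to no sample numbered 0.

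Here genes of GENCODE M21 were placed by the first base of the gene model on its strand. A border is any TAD start or end. Sizes are end minus start, printed 1-based. Python 3.11.15, numpy 2.4.6, pandas 2.3.3, Biopython 1.88 (pairwise alignment of coding sequences) and matplotlib 3.10.9 were used. On simulated lists of abutting TADs, with identical ends required, 7 measures were tested and 7 were recovered. The 40 kb tolerance, lists with gaps, border distances, Slc runs and motif shares were not part of that check. Bases, repeats and sites were read from GRCm38, promoters from RefSeq. Named genes were the members, the genes in their TADs or next to their borders, the other Slc17 genes, 13 genes of phosphate and urate transport, Slc runs, and the histone genes nearest. Members and lists were chosen with earlier results of these data known. Alternatives changed the gene position, gene types, tolerance, border definition, TAD size and distance between neighbours.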

Additional observations from a re-analysis of the deposited data

How the results depend on the processing

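No paired analysis was possible because each list rests on both replicates of a culture together, which also left no way to leave out a replicate. Under every alternative tried for each, all 4 members lay in a TAD, all 6 pairs shared it in both lists, 0 of 4 members had a 3D counterpart of their 2D TAD and 4 of 4 lay in a joined TAD. Many of these settings could not have changed the outcome. Both TADs exceed 200 kb, and counting intervals or all gene types alters no end of a TAD. The right ends lie 320 kb apart, beyond the 80 kb tolerance, and the outer ends of the joined TAD are identical. Settings for the joined count were chosen after seeing the data. Alternatives came to 73 values, of which 48 stayed within a limit, 25 moved and 0 reversed. All are counts, shares or distances, which cannot change sign, so no reversal was possible and the 0 carries no information. The limit was 1.5 times the value for counts, its 95% Wilson interval for shares of genes or pairs, and 40 kb for distances. Starts in the TAD other than those of the 4 members numbered 7 in 2D and 8 in 3D for protein-coding genes, and 11 and 15 for all gene types. Counting as borders only positions where TADs meet, 0 borders of the window were shared in either list, and the nearest border in 3D lay 513, 481, 452 and 405 kb from Slc17a2, Slc17a3, Slc17a1 and Slc17a4, since in 3D the left end of their TAD meets no other TAD. The share of neighbouring pairs in 1 TAD was 61.7% (2D) and 69.7% (3D) with starts up to 100 kb apart, 57.6% and 64.6% at any distance, 49.4% and 56.7% by whole gene bodies, and 78.5% and 79.9% with the intervals between TADs counted as domains. With starts up to 500 kb apart the Slc runs numbered 8, of which 4 in 2D and 5 in 3D lay in 1 TAD. Of the 6 runs with starts up to 200 kb apart, 2 in each list did so by whole gene bodies. That removed the difference between the lists, although both counts stayed within the limit. The share of genes with a 3D counterpart was 48.3% with identical ends, 79.3% within 80 kb and 69.4% for all gene types. Chosen after seeing the data, the share of genes in a joined TAD was 4.98% with identical ends, 12.2% within 80 kb and 9.05% for all gene types, and the share with more other starts in 3D was 26.8% by gene midpoints. The cause of these shifts was not tested beyond what each setting counts. Each TAD end is known to 1 bin of 40 kb, and the number of read pairs behind the border at 24000000 is unknown.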
